A study of Mus musculus with 2 samples.

Results

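Laminins are heterotrimers of 1 alpha, 1 beta and 1 gamma chain that are secreted by epithelial, vascular and mesenchymal cells and polymerise into the sheet on which a basement membrane is built. In the developing nephron the first basement membranes contain the products of Lama1 and Lamb1. As the glomerulus matures these are replaced in its basement membrane by the products of Lama5 and Lamb2, made by podocytes and glomerular endothelium, while the Lamc1 chain is kept. Lama3 and Lamb3 encode chains of the laminin that joins basal keratinocytes to the dermis.

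The laminin chain genes described here are the 5 alpha chain genes Lama1 to Lama5, the 3 beta chain genes Lamb1 to Lamb3 and the gamma chain gene Lamc1, found by symbol in both count matrices. They are 9 of 55488 gene rows, of which 37992 had at least 1 UMI (a unique molecular identifier, 1 per captured transcript). All 9 were detected in both libraries. The data are single-cell RNA-seq of newborn mouse kidney at postnatal day 0, with 1 library per genotype. The library labelled Flcn WT came from mice that carried Six2Cre and 1 floxed Flcn allele (Six2Cre; Flcn flox/+). The library labelled Flcn KO came from mice with Six2Cre and both alleles floxed (Six2Cre; Flcn flox/flox). Both groups therefore carried the Cre, and the control was heterozygous. Six2Cre acts in nephron progenitors and is inherited by the nephron epithelium they form, so stroma, vessels, immune cells and the ureteric lineage lie outside its main reach. Flcn encodes folliculin, a lysosomal regulator that restrains the transcription factors TFEB and TFE3. How many animals went into a library is not stated. The tissue is labelled as embryonic kidney, whereas the design text gives the newborn stage.

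Each genotype was represented by a single library, so differences could not be tested across samples, and genotype, animal and library cannot be told apart. Ratios are KO over WT, and every interval is an exact 95% interval that covers counting error only. Filtering kept 4000 cells of the WT library, with a median of 20967.5 UMIs, and 4798 of the KO library, with a median of 18458. Cells were assigned by marker genes to 6 classes of the Six2 lineage and 5 outside it that could be compared. They ranged from 72 immune to 1152 stromal cells in the WT library and from 60 distal tubule to 2003 stromal cells in the KO library. Intercalated cells (42 WT, 14 KO) were too few to compare, and 221 WT and 133 KO cells stayed unnamed. The libraries shared 5 barcodes, 1 of them among the kept cells. Flcn, the targeted gene, had 1695 UMIs in the WT and 1559 in the KO library over all barcodes. Levels are given as CPM, counts per 1e6 nuclear-encoded UMIs of a class. In podocytes Flcn stood at 21.0 and 36.2 CPM, and in proximal tubule at 22.7 and 13.2. Counts from the 3′ end do not check a deletion inside the gene.

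Promoter sequence is shown for Lamb1 and Lamb2, the beta chains whose balance in podocytes differed between the libraries, and for Lama5, the alpha chain of the mature glomerulus. The stretches are the bases just before the first annotated start of each gene, from RefSeq on GRCm38.p6, written 5′ to 3′ on the gene's strand. Capitals mark GGGCGG or its complement CCGCCC, the GC box. The Lamb1 stretch is chr12:31265043-31265233 (plus strand, 191 bases, 63.9% G or C), the Lamb2 stretch is chr9:108479612-108479735 (plus strand, 124 bases, 37.9% G or C), and the Lama5 stretch is chr2:180225860-180226109 (minus strand, 250 bases, 72.4% G or C).
Lamb1: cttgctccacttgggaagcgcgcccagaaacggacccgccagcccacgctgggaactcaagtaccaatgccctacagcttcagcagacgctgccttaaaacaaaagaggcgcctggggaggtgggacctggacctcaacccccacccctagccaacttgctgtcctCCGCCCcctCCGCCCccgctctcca
Lamb2: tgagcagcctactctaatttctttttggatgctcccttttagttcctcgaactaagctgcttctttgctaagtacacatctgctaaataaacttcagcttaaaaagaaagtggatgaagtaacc
Lama5: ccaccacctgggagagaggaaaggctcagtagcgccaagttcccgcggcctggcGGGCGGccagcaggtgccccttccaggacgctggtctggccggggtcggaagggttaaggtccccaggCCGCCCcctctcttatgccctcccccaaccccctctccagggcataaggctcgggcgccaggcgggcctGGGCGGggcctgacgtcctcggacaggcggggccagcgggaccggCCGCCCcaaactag
Lama5 held 4 GC boxes, Lamb1 held 2 and Lamb2 held none. Over 32851 promoter windows of 250 bases in the same table, 32.7% held at least 1 on either strand. CACGTG, the core bound by TFEB and TFE3, was in 6.02% of those windows, and TCATGTG was in 3.25%. Neither was found in the 3 stretches shown, which says only that these letters are not in them. The table had promoters for 5 of the 9 genes (Lama2, Lama5, Lamb1, Lamb2 and Lamb3).

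Each chain had its own distribution over the kidney. Levels are compared for 1 gene across classes and libraries, never between genes, because counts taken at the 3′ end were not scaled for length. The map of levels shows each gene against its own highest class.

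**Figure D1:**
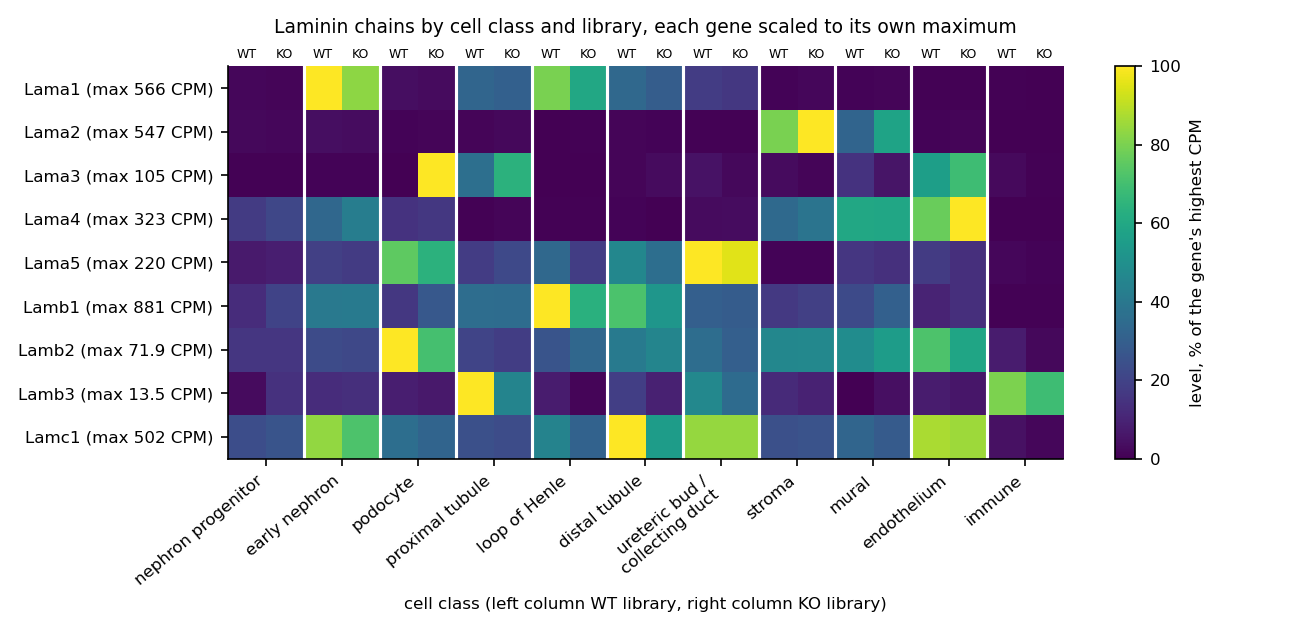
Level of each laminin chain in 11 cell classes, WT (left) and KO (right) column of each class, as a percentage of that gene's highest CPM; the highest CPM is printed beside each name. Lama1 was highest in early nephron, Lama2 in stroma, Lama4 in endothelium, Lama5 in ureteric bud and collecting duct, Lamb1 in loop of Henle, Lamb2 in WT podocytes and Lamc1 in WT distal tubule; Lama3 peaked in KO podocytes.

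Lama1, the alpha chain of early nephron basement membranes (GRCm38 chr17:67697259-67822647, plus strand), was highest in early nephron cells. It stood there at 566 CPM in the WT and 471 CPM in the KO library (12102 and 6805 UMIs). The loop of Henle was next at 451 and 339 CPM. Distal tubule (191 and 167 CPM) and proximal tubule (185 and 175 CPM) followed, then ureteric bud and collecting duct at 101 and 91.8 CPM. Nephron progenitors, from which the early nephron forms, had 10.1 and 8.35 CPM. The early nephron cells fell into 2 clusters. The cluster led by Spon1, Corin and Lgr5 had 710 and 687 CPM of Lama1, and the other had 480 and 362 CPM. The KO level of Lama1 was below the WT level in every nephron class, with ratios from 0.74 in podocytes to 0.94 in proximal tubule. The intervals of podocytes (0.52 to 1.04) and progenitors (0.66 to 1.04) held 1. The direction was not the same in every setting. Lama1 in distal tubule had a ratio of 1.17 as a mean over cells and 1.26 with cells thinned to 3000 UMIs (26 and 22 UMIs). Lama1 in proximal tubule had 1.12 with thinned cells and 1.25 without the Havcr1 cluster described below. In stroma, where the gene was low, the ratio was 1.52 (1.22 to 1.91, from 114 and 294 UMIs).

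Lama2, an alpha chain of mesenchyme and muscle (chr10:26980036-27619758, minus strand), marked the stroma. It stood there at 437 CPM in the WT and 547 CPM in the KO library, a ratio of 1.25 (1.22 to 1.28). Mural cells, the smooth muscle, renin and pericyte class, had 176 and 318 CPM, a ratio of 1.80 (1.61 to 2.03). Over the other settings that ratio ran from 1.37 with thinned cells to 1.88, and it was 1.43 as a mean over cells. Mural markers differed as well, 5 of 12 being higher, with Ren1 at 0.62 (0.61 to 0.63) and Abcc9 at 1.49 (1.39 to 1.59). Their part in the result was not tested. No nephron class exceeded 21.1 CPM of Lama2. Among stromal clusters Lama2 varied more than between libraries. The cluster led by Postn, Dlk1 and Dcn, genes of connective tissue fibroblasts, had 1517 CPM in the WT and 1089 in the KO library. A cluster led by Zim1, Lox and Clca3a1 had 950 and 942 CPM, and a cluster led by Gria1, Cntn4 and Ntng1 had 188 and 264. The KO library held more of the stroma in some clusters than the WT library did, for example 387 against 114 cells in the cluster led by Lrriq1, Synpo2 and Penk. The loop of Henle ratio of 2.60 (1.30 to 5.64) rested on 11 and 38 UMIs. 1 WT cell held 8 of the 11, and without the cell of most UMIs in each library the ratio was 7.1 (2.2 to 36.4).

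Lama4, an alpha chain of vessel walls and mesenchyme (chr10:38965515-39110188, plus strand), was highest in endothelium at 249 CPM in the WT and 323 CPM in the KO library, a ratio of 1.29 (1.24 to 1.36). Mural cells followed with 193 and 192 CPM, and their ratio of 0.99 (0.88 to 1.12) held 1. Stroma had 110 and 124 CPM. Within the nephron the gene was seen mainly at its start, with 56.7 and 69.3 CPM in progenitors and 108 and 137 CPM in early nephron. It was nearly confined to 1 of the 2 early nephron clusters, at 167 and 202 CPM against 9.08 and 7.64 CPM in the Spon1, Corin and Lgr5 cluster. Podocytes had 47.8 and 52.2 CPM, while loop of Henle had 2.09 and 2.27 CPM. In proximal tubule the ratio was 2.0 (1.35 to 3.02) on 40 and 74 UMIs. A single KO cell held 25 of those, and without the cell of most UMIs in each library it was 1.90 (1.17 to 3.14). With doublets kept it was 0.84, on 172 and 131 UMIs, and Lama4 in proximal tubule was at 3.23 without the Havcr1 cluster described below (40 and 68 UMIs).

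Lama5, the alpha chain of mature epithelial basement membranes whose promoter is shown above (chr2:180176373-180225859, minus strand), was highest among the compared classes in ureteric bud and collecting duct, at 220 CPM in the WT and 210 CPM in the KO library. The intercalated cells, too few to compare, had 301 and 395 CPM. Podocytes were next at 165 and 142 CPM, a ratio of 0.86 (0.76 to 0.96). Stroma had 2.58 and 1.86 CPM. Within the podocytes it was higher in the cluster with Nphs1, which encodes nephrin of the slit diaphragm, and Magi2 among its leading genes, at 202 and 182 CPM. It stood at 88.5 and 79.2 CPM in the cluster led by Ndnf and Pcp4. In the loop of Henle it stood at 74.4 against 39.8 CPM (ratio 0.54, 0.47 to 0.60), in a class whose finer clusters differed between the libraries, as described below. The share of Lama5 among Lama1 plus Lama5 UMIs differed between classes. It was 6.91% in WT and 7.49% in KO early nephron cells, and 88.5% and 89.9% in podocytes, and both pairs of intervals overlapped. The intervals of the libraries did not overlap in proximal tubule (17.6% in WT and 21.6% in KO cells), loop of Henle (14.2% and 10.5%) or stroma (30.1% and 16.9%). The stromal shares rested on 163 and 354 UMIs of both genes together. Without the Havcr1 cluster described below, Lama5 in proximal tubule had a ratio of 1.04 (827 and 453 UMIs) and Lama1 of 1.25 (3894 and 2553 UMIs). The KO share of Lama5 was then below the WT share.

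Lama3 had the largest ratio of all laminin chains. In podocytes 1 UMI was counted over 192 WT cells and 341 UMIs over 118 KO cells. These are 0.188 CPM (0.00475 to 1.05) and 105 CPM (93.9 to 116), a ratio of 558 with an interval from 99.5 to 22109. WT podocytes were thus among the classes with almost no Lama3, and KO podocytes had the highest level of the compared classes. In KO podocytes 4.11% of 13031 tested genes were at least 2-fold higher. The gene (chr18:12333819-12583013, plus strand) overlaps short annotated transcripts on both strands. The same-strand one, Gm29201, had 0 WT and 2 KO UMIs in podocytes, and Gm29199 had 0 and 1.

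The Lama3 transcripts were spread over many KO podocytes. Of 118 cells, 45 (38.1%) had at least 1 UMI, 32 had at least 2 and 23 had at least 5. The largest count in a cell was 34. The 5 cells with most UMIs held 148 of 341 (43.4%), which left 193 UMIs in the others against 1 in all WT podocytes. The median depth was 17828.5 UMIs in WT and 20003 in KO podocytes. With each cell thinned to 3000 UMIs, 16 of 114 KO podocytes (14.0%, 8.24 to 21.8) and 0 of 190 WT podocytes had a Lama3 UMI, which allows a WT share of up to 1.58%. As a measure of free RNA, loop of Henle cells had a Lama3 UMI in 0 of 158 WT cells, which allows up to 1.90%, and in 2 of 203 KO cells (0.985%), at median depths of 42257 and 50701 UMIs. A finer clustering divided the podocytes. In the Nphs1 and Magi2 cluster 298 UMIs (151 CPM) came from 61 KO cells and 0 from 125 WT cells. In the Ndnf and Pcp4 cluster 43 UMIs (33.4 CPM) came from 57 KO cells and 1 (0.571 CPM) from 68 WT cells.

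**Figure D2:**
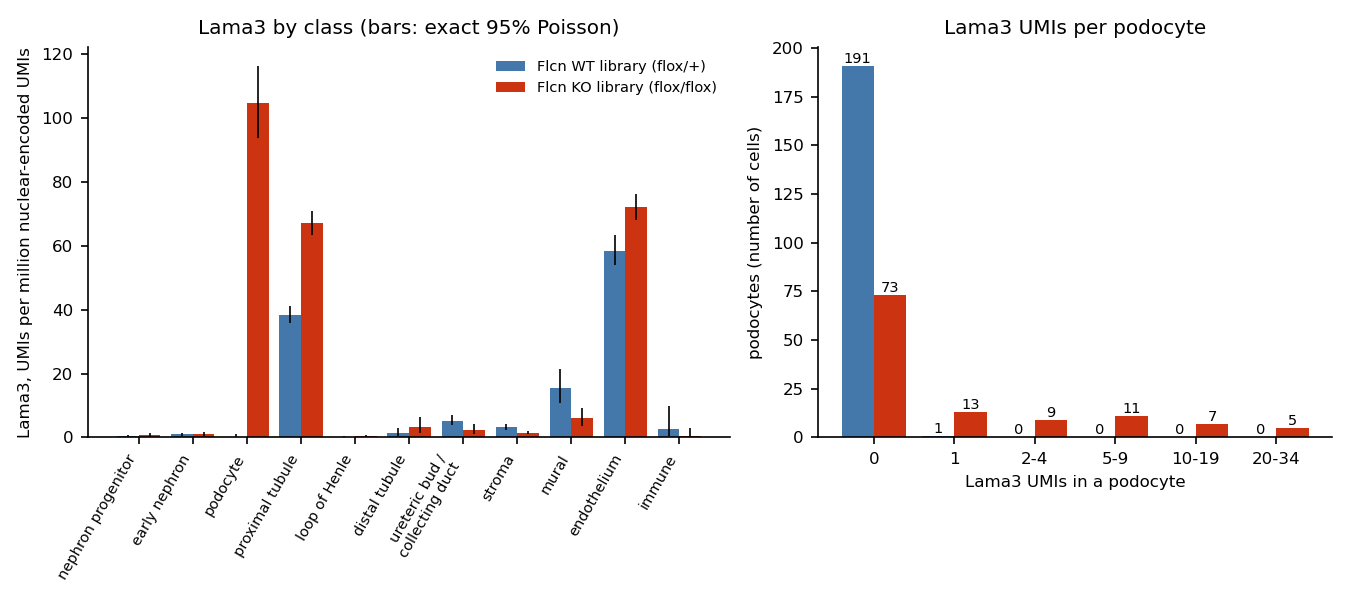
Left, Lama3 in CPM by class for the WT (blue) and KO (red) library, with exact 95% Poisson intervals as bars. Right, number of podocytes by their count of Lama3 UMIs, with cell numbers printed; 191 of 192 WT podocytes held no Lama3 UMI, while 45 of 118 KO podocytes held 1 to 34.

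Other values moved with this ratio in podocytes. All 10 podocyte markers were lower in the KO library, the lowest ratio being 0.327 for Cdkn1c, and their summed level was 45107 CPM in WT and 29094 CPM in KO podocytes. The summed markers of proximal tubule and endothelium, where Lama3 was also found, were not higher. The 14 proximal tubule markers summed to 91.7 CPM in WT and 25.5 CPM in KO podocytes, 1 of 14 being higher, with Slc5a2 at 0 in both and Aqp1 at 0 in KO cells. The 11 endothelial markers summed to 24.4 and 18.7 CPM, 4 of 11 being higher, with Esam at 0 in KO cells. The 6 erythroid markers summed to 13.1 and 111 CPM, 4 of 6 being higher. The 10 distal tubule markers summed to 211 and 372 CPM, 5 of 10 being higher, with Pvalb and Klk1 at 0 in both, Emx1 at 0 in WT cells and Slc12a3 and Trpv5 at 0 in KO cells. The 11 immune markers summed to 30.8 and 38.1 CPM, 10 of 11 being higher, with Ptprc and Lyz2 at 0 in WT and Tyrobp at 0 in KO cells. The part of these markers in the result was not tested. At a coarser clustering the podocyte class also took in the unnamed cluster led by Wnt16, Npr3 and Tagln, which had 30 WT and 38 KO UMIs of Lama3 (11.1 and 15.0 CPM), and the ratio was then 16.9. The ratio was 118 with doublets kept, on 5 and 375 UMIs. Lamb3, whose product joins that of Lama3 in the keratinocyte laminin, had 6 WT and 3 KO UMIs in podocytes.

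Outside podocytes Lama3 was found in the WT library mainly in endothelium (58.5 CPM) and proximal tubule (38.4 CPM). Mural cells had 15.5 CPM, and every other compared WT class had 5.26 CPM or less. In endothelium it lay in the cluster led by Gja4 and Sox17, genes of arterial endothelium, at 347 CPM in the WT and 376 CPM in the KO library. The remaining endothelium had 12.3 and 26.6 CPM. Lama3 is itself among the genes by which the arterial cells stood apart in the clustering. In proximal tubule it was 67.1 CPM in the KO library, a ratio of 1.75 (1.60 to 1.91). That class was made of different cells in the libraries. A finer cluster led by G6pc and Miox held 194 WT and 23 KO cells, and a cluster led by Havcr1, a gene of injured tubule, held 2 WT and 151 KO cells. Inside the finer clusters the Lama3 ratio was 2.02 (1.66 to 2.45) in the G6pc cluster, 2.06 (1.64 to 2.59) in the Serpina6 and Kap cluster and 2.87 (2.11 to 3.95) in the Hdc cluster. In the Havcr1 cluster it was 90.7 and 99.7 CPM, on 11 and 845 UMIs. Without the Havcr1 cluster the ratio over the whole class was 1.11.

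Lama3 was at least 2-fold lower in 3 classes outside the Six2 lineage. The ratio was 0.43 (0.18 to 0.88) in ureteric bud and collecting duct, on 46 and 9 UMIs, where 2.68% of all tested genes were at least 2-fold lower. It was 0.45 (0.30 to 0.68) in stroma, on 61 and 47 UMIs, where that share was 1.63%, and 0.39 (0.21 to 0.68) in mural cells, on 35 and 21 UMIs, where it was 2.16%. All 3 rested on few molecules. In mural cells 1 WT cell held 15 of the 35 UMIs, and the ratio was 0.51 (0.24 to 1.03) without the cell of most UMIs in each library. The ureteric bud value was 0.83 with doublets kept.

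Lamb1, the beta chain of early and of most adult basement membranes (chr12:31265234-31329644, plus strand), was highest in the loop of Henle at 881 CPM in the WT and 558 CPM in the KO library. Distal tubule had 631 and 462 CPM, early nephron 357 and 360 CPM and proximal tubule 315 and 311 CPM. In podocytes it stood at 143 and 244 CPM, a ratio of 1.71 (1.55 to 1.89). Nephron progenitors had 111 and 178 CPM, a ratio of 1.61 (1.52 to 1.70). In the loop of Henle the ratio was 0.63 (0.61 to 0.65), so that the same gene was higher in the KO library in progenitors and podocytes and lower in the loop. Early nephron (1.01, 0.97 to 1.05) and proximal tubule (0.99, 0.96 to 1.02) had intervals that held 1. The proximal clusters were not alike. In 1 of them, with 200 WT and 199 KO cells, Lamb1 stood at 222 and 307 CPM (1.38, 1.31 to 1.46). Without the Havcr1 cluster the ratio over the proximal class was 0.94. Outside the lineage Lamb1 had ratios of 1.33 (1.23 to 1.44) in endothelium and 1.35 (1.21 to 1.52) in mural cells.

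Lamb2, the beta chain of the mature glomerular basement membrane, whose loss causes congenital nephrotic syndrome (chr9:108479736-108490530, plus strand), was highest in WT podocytes at 71.9 CPM, against 50.7 CPM in KO podocytes. The ratio was 0.71 (0.58 to 0.85, from 383 and 165 UMIs). Endothelium followed with 51.9 and 42.3 CPM, a ratio of 0.82 (0.73 to 0.91). Stroma (33.3 and 33.6 CPM) and mural cells (34.9 and 39.7 CPM) had intervals that held 1. In the loop of Henle taken whole Lamb2 had a ratio above 1, 1.27 (1.04 to 1.56, from 162 and 274 UMIs), beside the lower Lamb1. In the finer loop cluster described below its interval held 1 (1.05, 0.66 to 1.61).

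The balance of the exchangeable beta chains therefore differed between libraries in podocytes. Lamb2 made up 33.5% of Lamb1 plus Lamb2 UMIs in WT podocytes (30.8 to 36.3) and 17.2% in KO podocytes (14.9 to 19.7). The finer clusters showed where. In the Nphs1 and Magi2 cluster the share was 56.2% (52.1 to 60.1) in WT and 30.6% (26.4 to 35.2) in KO cells. Lamb1 was 2.10 times as high there (1.78 to 2.48) and Lamb2 had a ratio of 0.72 (0.59 to 0.89). In the Ndnf and Pcp4 cluster, whose Lamb2 share was 6.90% in WT and 5.47% in KO cells, the intervals overlapped. Podocyte class markers differed as given above for Lama3. In endothelium the share was 36.7% in WT and 26.3% in KO cells, in progenitors 9.36% and 5.93%, and in loop of Henle 2.09% and 4.11%, with intervals that did not overlap. The loop class was made of different cells in the libraries, as described below. The progenitor clusters were not alike. In 1 of them, with 353 WT and 303 KO cells, Lamb1 had a ratio of 1.69 (1.53 to 1.88) and Lamb2 of 0.96 (0.71 to 1.30). In another, with 164 and 199 cells, Lamb1 had 1.47 (1.34 to 1.62) and Lamb2 1.48 (0.96 to 2.33). Early nephron, proximal tubule, distal tubule, ureteric bud, stroma and mural cells had overlapping intervals of the share.

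**Figure D3:**
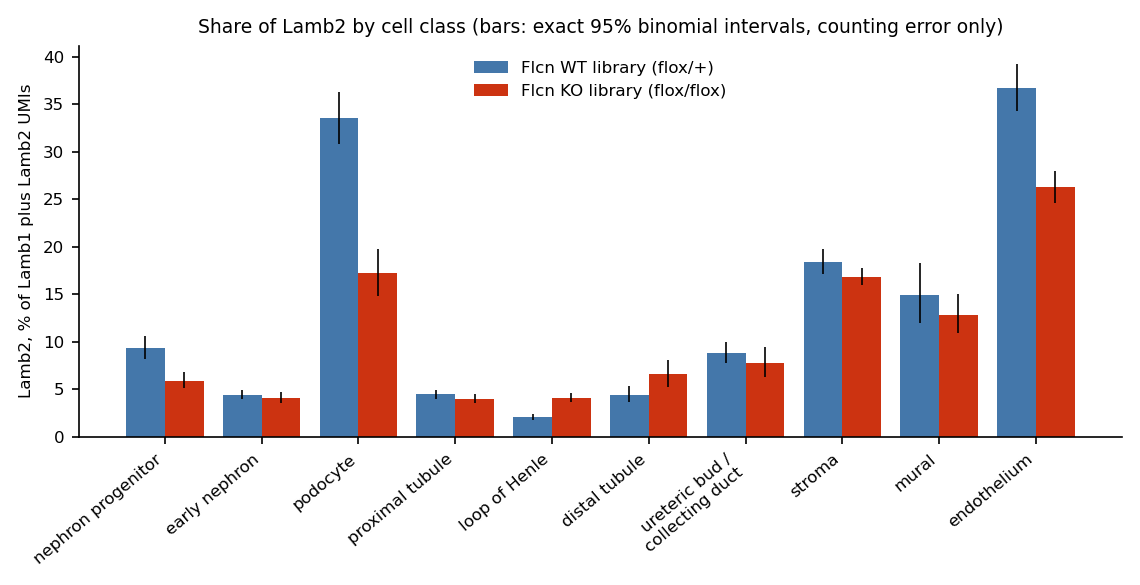
Lamb2 as a percentage of Lamb1 plus Lamb2 UMIs in 10 cell classes, WT (blue) and KO (red) library, with exact 95% binomial intervals as bars; immune cells, with 7 and 14 such UMIs, are left out. The WT podocyte share is 33.5% and the KO share 17.2%; endothelium has 36.7% and 26.3%.

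Lamb3, the beta chain of the keratinocyte laminin (chr1:193207699-193343878, plus strand), was rare. It had 550 UMIs in the WT and 338 in the KO library over all barcodes. In proximal tubule it stood at 13.5 CPM in the WT and 6.09 CPM in the KO library, a ratio of 0.45 (0.36 to 0.56, from 286 and 119 UMIs), while 5.28% of all genes tested in that class were at least 2-fold lower. It was lower inside the finer proximal clusters too, with ratios of 0.14 (0.029 to 0.42) in the G6pc cluster, 0.45 (0.22 to 0.86) in the Serpina6 and Kap cluster and 0.37 (0.19 to 0.69) in the Hdc cluster. Lamb3 in proximal tubule had a ratio of 0.23 without the Havcr1 cluster, on 282 and 34 UMIs. The annotated gene overlaps G0s2 and Hsd11b1 on the opposite strand, so counts cannot be told apart if strand was not used. In mural cells G0s2 had 80 and 331 UMIs, while Lamb3 had 0 and 2. The part of the overlap in the Lamb3 counts was not tested. G0s2 stood at 24.3 and 11.4 CPM in proximal tubule, and Hsd11b1 at 10.97 and 9.37 CPM. All 14 proximal tubule markers were lower in the KO class, from 17399 to 10957 CPM in sum, and the part of this in the result was not tested. In nephron progenitors the Lamb3 ratio was 4.68 (2.10 to 11.8), on 8 and 30 UMIs, where 2.22% of tested genes were at least 2-fold higher. 1 KO cell held 12 of the 30, and the ratio was 3.21 (1.28 to 9.10) without the cell of most UMIs in each library. Among immune cells the Lamb3 UMIs came from a single small cluster in the main, with 6 of 8 WT and 15 of 18 KO UMIs from 19 and 70 cells.

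Lamc1, the gamma chain of most laminins (chr1:153218922-153332786, minus strand), was widely present. It exceeded 100 CPM in all 10 compared classes other than immune cells, in both libraries. Ureteric bud and collecting duct (422 and 421 CPM, ratio 0.999, 0.943 to 1.06) and endothelium (438 and 428 CPM, ratio 0.98, 0.94 to 1.01) did not differ beyond counting error. It was lower in the loop of Henle taken whole, at 224 and 157 CPM (ratio 0.70, 0.66 to 0.75), though not in the finer loop cluster described below, and in distal tubule, at 502 and 277 CPM (0.55, 0.50 to 0.60). The distal class itself differed, as its 10 markers summed to 7454 CPM in the WT and 1433 CPM in the KO library, with none higher and Pvalb at 0 in KO cells. Its median depth was 16407 UMIs in the WT and 38647.5 in the KO library. With at most 10% mitochondrial UMIs per cell Lamc1 in distal tubule had a ratio of 0.999, on 5492 and 2393 UMIs of a larger class. Lamb1 had 10049 and 2979 UMIs in that class, against 2488 and 1133 in the distal class as reported. That filter only removes cells, so the larger class took in cells that were named otherwise here. The 0.999 thus rests at least in part on other cells, and how many of the reported distal cells that class kept was not counted. The part of these differences in the result was not tested. In immune cells, where Lamc1 had 16 and 17 UMIs, the ratio was 0.40 (0.19 to 0.86), while 3.95% of tested genes were at least 2-fold lower. It was 0.91 with doublets kept. Lamc3, another gamma chain gene, had 119 and 344 UMIs in stroma, a ratio of 1.71 (1.38 to 2.12), and 55 and 31 UMIs in podocytes (0.92, 0.57 to 1.46). In ureteric bud and collecting duct Lamc3 had 19 and 2 UMIs (0.23, 0.026 to 0.95), where 2.68% of tested genes were at least 2-fold lower. The arterial endothelial cluster had 10 and 37 UMIs (2.45, 1.20 to 5.53), and the remaining endothelium had 0 and 5.

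Over 9 genes and 11 classes, 85 of 99 pairs had at least 20 UMIs over both libraries and were compared. In 4 the KO level was at least 2-fold higher (Lama3 in podocytes, Lamb3 in progenitors, Lama2 in loop of Henle and Lama4 in proximal tubule), which is 4.71% of pairs, against 3.44% of all 164665 gene and class pairs. In 5 it was at least 2-fold lower (Lamb3 in proximal tubule, Lamc1 in immune cells and Lama3 in ureteric bud, stroma and mural cells), which is 5.88%, against 3.61%. These shares are near the background, so the laminin chains as a group did not stand apart by this measure. In the classes concerned, 6.01% of proximal tubule and 5.04% of loop of Henle genes were at least 2-fold higher. The ratio interval lay above 1 in 23 pairs and below 1 in 22, and held 1 in 40. Over all pairs 15.9% lay above and 15.2% below. That measure depends on the number of UMIs, and the laminin chains include several abundant genes.

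**Figure D4:**
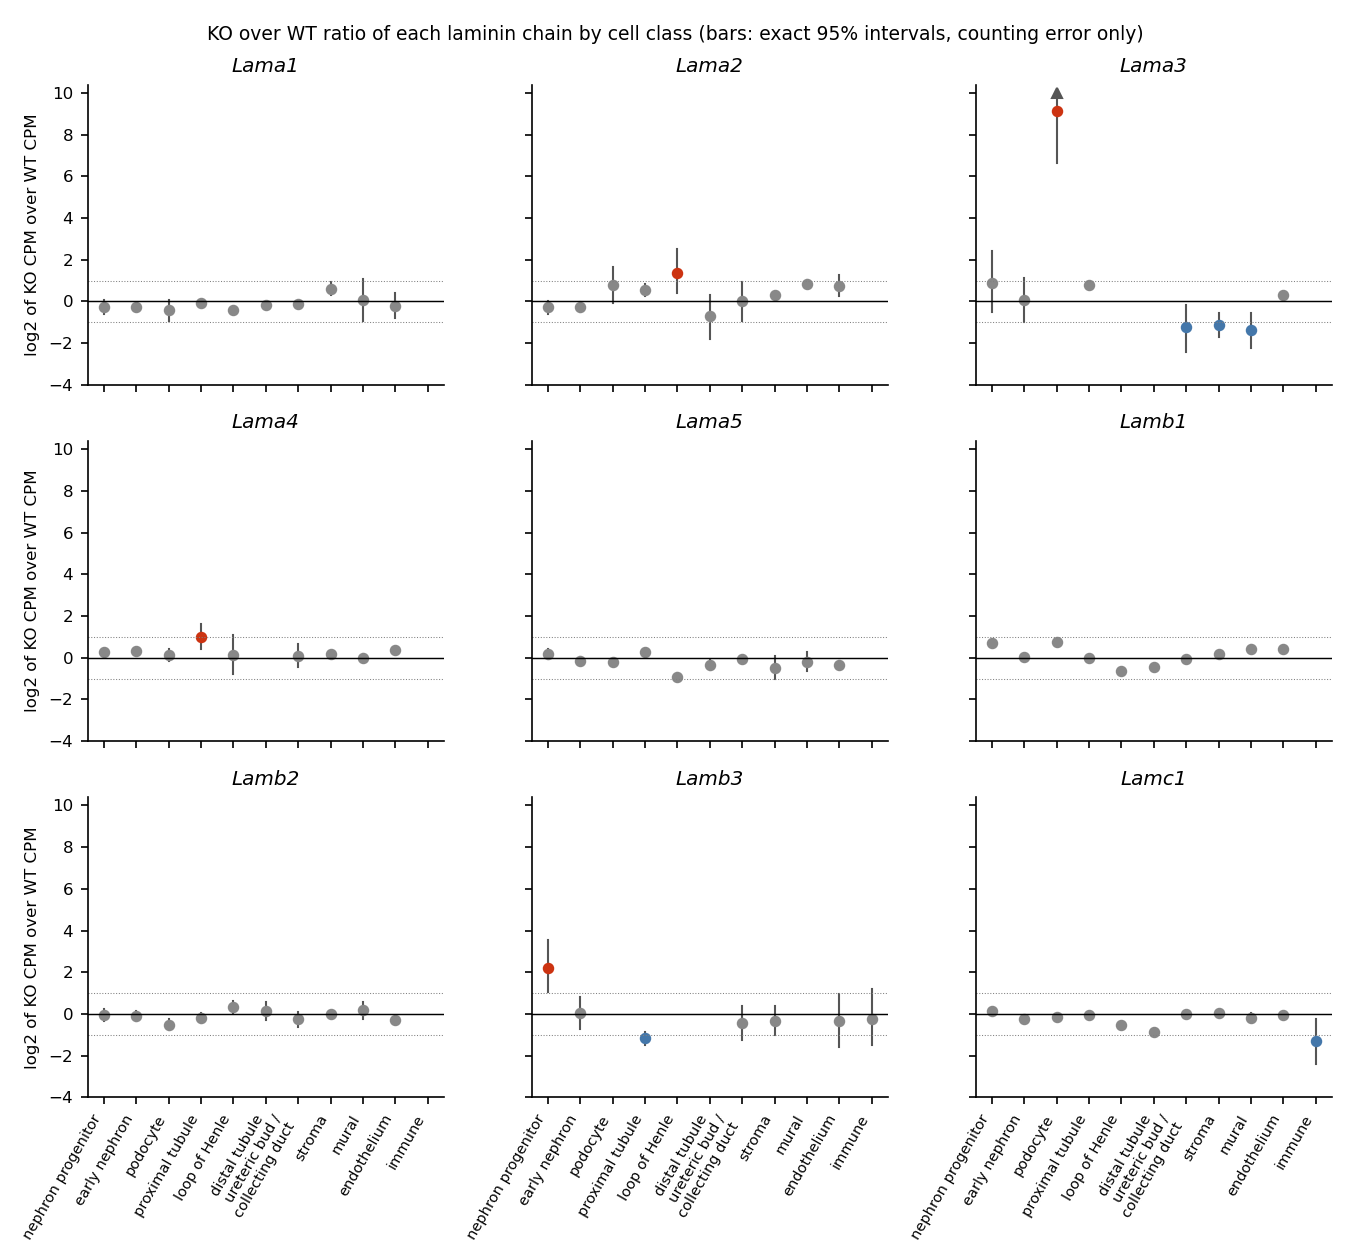
Log2 of the KO over WT ratio for each laminin chain (panels) in each class with at least 20 UMIs, with exact 95% intervals; red points are at least 2-fold higher and blue at least 2-fold lower in the KO library, dotted lines mark 2-fold, and the triangle marks an interval that runs beyond the axis. Lama3 in podocytes stands apart at 558-fold, while Lama1, Lama5, Lamb1, Lamb2 and Lamc1 stay within 2-fold in every class of the nephron.

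In the loop of Henle class taken whole, the main epithelial chains had lower levels in the KO library. Lama1 (0.75, 0.72 to 0.79), Lama5 (0.54, 0.47 to 0.60), Lamb1 (0.63, 0.61 to 0.65) and Lamc1 (0.70, 0.66 to 0.75) had intervals below 1, which is 4 of the 7 chains with enough UMIs, while 26.7% of all genes tested in the class had such intervals. Distal tubule had 4 chains with intervals below 1 as well (Lama1, Lama5, Lamb1 and Lamc1), where 14.5% of genes did. Other basement membrane genes were also lower in the loop of Henle. Of 21 with enough UMIs, 8 were at least 2-fold lower and 1 was at least 2-fold higher, against 8.06% and 5.04% of all genes, and their median log2 ratio was -0.68, against -0.04 over all genes. Ntn4, a netrin that binds laminin, went from 66.4 to 5.41 CPM (ratio 0.082, 0.062 to 0.11). Col4a3, a collagen IV chain of mature basement membranes, had a ratio of 0.33 (0.30 to 0.36). Hspg2, which encodes perlecan, had 0.34 (0.29 to 0.39), and Fras1, a protein of fetal epithelial basement membranes, had 0.37 (0.34 to 0.39).

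**Figure D5:**
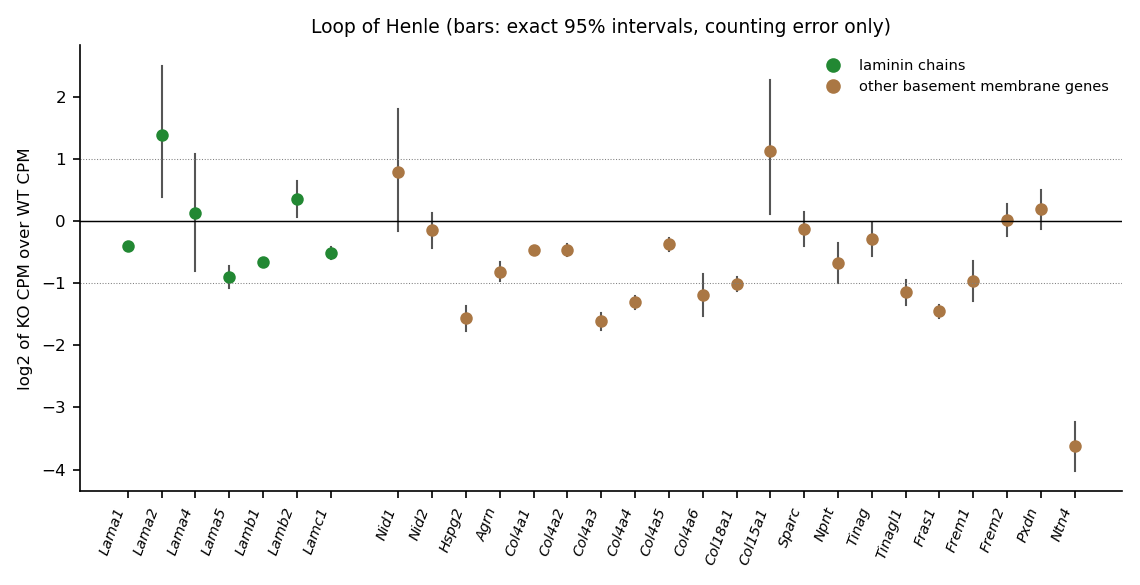
Log2 of the KO over WT ratio in loop of Henle cells for the 7 laminin chains (green) and the 21 other basement membrane genes (brown) with at least 20 UMIs, with exact 95% intervals as bars and dotted lines at 2-fold. Lama1, Lama5, Lamb1 and Lamc1 lie below 0, and Ntn4 is the lowest gene; the class is taken whole, and its finer clusters differed between the libraries.

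The loop class was made of different cells in the libraries, as the proximal class was. A finer clustering split it into a cluster led by Pappa2 and Slc12a1, with 145 WT and 26 KO cells, and a cluster led by Umod and Ptger3, with 13 WT and 177 KO cells. These values were computed after seeing the data. Inside the Pappa2 cluster Lamb1 was lower, at 885 and 564 CPM (ratio 0.64, 0.59 to 0.69), while Lamc1 was higher, at 225 and 274 CPM (1.22, 1.09 to 1.37). The intervals of Lama1 (0.92, 0.84 to 1.01), Lama5 (0.85, 0.67 to 1.08) and Lamb2 (1.05, 0.66 to 1.61) held 1. The lower levels of Lama1, Lama5 and Lamc1 in the whole class were thus not seen in this cluster beyond counting error, and 1 of 5 chains had an interval below 1, against 12.5% of genes. In the Umod cluster the 13 WT cells held 39365 UMIs in all, too few to compare. The 177 KO cells there had 330 CPM of Lama1, 36.8 of Lama5, 557 of Lamb1 and 142 of Lamc1, against 417, 63.7, 564 and 274 CPM in the 26 KO cells of the Pappa2 cluster.

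Of the other basement membrane genes, 2 of 19 were at least 2-fold lower inside the Pappa2 cluster, Ntn4 (0.18, 0.098 to 0.29) and Tinagl1 (0.29, 0.18 to 0.43), against 8.05% of all genes, and the median log2 ratio was -0.22. Col4a3 had 0.66 (0.56 to 0.78) and Hspg2 0.60 (0.46 to 0.78), while Fras1 was higher at 1.35 (1.22 to 1.497). Markers differed over the whole class too. The 11 loop markers summed to 13308 CPM in the WT and 13241 CPM in the KO library, but Umod had a ratio of 3.34 (3.26 to 3.42) and Slc12a1 of 0.61 (0.60 to 0.62). Early nephron markers summed to 893 and 445 CPM, 2 of 11 being higher and none at 0. Distal markers summed to 658 and 306 CPM, none of 10 being higher, with Pvalb at 0 in both and Trpv5 at 0 in KO cells. The part of these markers in the laminin levels was not tested.

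Of the laminin receptors, none of 11 with enough UMIs was at least 2-fold different in the whole loop of Henle class. Over all genes there 5.04% were at least 2-fold higher and 8.06% lower. The median log2 ratio of the receptors was 0.03, against -0.04 over all genes. Itga1, an integrin for collagens and laminins, had a ratio of 0.54 (0.52 to 0.57) and Dag1, which encodes dystroglycan, had 0.55 (0.52 to 0.57). Sdc4, the proteoglycan syndecan-4, had 0.74 (0.71 to 0.77). Itga3, the alpha subunit of the main podocyte laminin receptor, had 1.499 (1.20 to 1.87). Inside the Pappa2 cluster 2 of 11 receptors were at least 2-fold higher and none lower, where 8.05% of all genes were lower. The 2 were Itga2 (6.37, 3.08 to 13.1, on 18 and 17 UMIs) and Itgb4 (3.31, 1.96 to 5.43, on 51 and 25). The share of all genes at least 2-fold higher there was not computed. The interval lay above 1 for 4 receptors and below 1 for 5, where 12.5% of all genes lay below. In the whole class the 5 hemidesmosome genes measured all had ratios above 1, with a median log2 ratio of 0.22. That median was -0.04 over all genes, and none of the 5 was at 2-fold. Itga6, which pairs with Itgb4 in hemidesmosomes, had 547 and 656 CPM in the whole class. Inside the Pappa2 cluster Itga6 was lower instead, at 549 and 461 CPM (0.84, 0.77 to 0.92). The Cd151 interval held 1 there (1.04, 0.75 to 1.41).

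In podocytes none of the 10 measured laminin receptors was at least 2-fold different, where 4.11% of all genes were at least 2-fold higher and 3.81% lower. Itga6 stood at 58.3 and 89.4 CPM (1.53, 1.30 to 1.80), and Itgb1, the shared beta subunit, at 718 and 563 CPM (0.78, 0.74 to 0.83). Integrin-linked adhesion genes had a median log2 ratio of -0.28, with Parva at 0.77 (0.73 to 0.81) and Ilk, the integrin-linked kinase, at 0.75 (0.65 to 0.86). Of 21 other basement membrane genes, 1 was at least 2-fold higher and none at least 2-fold lower, which is near those shares. Their median log2 ratio was -0.27, against 0.05 over all genes. Frem1 was at 494 and 745 CPM (1.51, 1.42 to 1.59). Col18a1 had a ratio of 0.58 (0.52 to 0.65) and Npnt, the ligand nephronectin, 0.64 (0.59 to 0.69). As a reference for folliculin loss, 8 of 11 measured TFEB and TFE3 targets were at least 2-fold higher in podocytes (median log2 ratio 1.31), against 4.11% of all genes. In the loop of Henle 9 of 12 were (1.20), against 5.04%, and in distal tubule 6 of 12 (1.20), against 5.37%. Fewer were in early nephron (4 of 12, 0.69, against 2.12%), proximal tubule (4 of 12, 0.67, against 6.01%) and progenitors (2 of 12, 0.62, against 2.22%). The list includes Flcn itself. Outside the Six2 lineage the median was 0.03 in stroma, 0.08 in mural cells, 0.04 in endothelium and -0.34 in immune cells, but 0.46 in ureteric bud and collecting duct, where 11 of 12 targets had ratios above 1. Hexa, a lysosomal hydrolase, had a podocyte ratio of 8.77 (7.35 to 10.5).

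In proximal tubule 2 of 12 receptors were at least 2-fold higher, against 6.01% of all genes, among them Itga3 at 15.9 and 43.0 CPM (2.71, 2.38 to 3.08). Sparc, a matrix protein that binds collagen IV, stood at 233 and 749 CPM (3.21, 3.11 to 3.32). The change of cells within this class given above applies to these values. In endothelium 4 of 21 other basement membrane genes were at least 2-fold lower, against 1.59% of all genes, and all 4 were collagen IV chains. The ratios were 0.16 (0.14 to 0.19) for Col4a4, 0.22 (0.19 to 0.25) for Col4a3, 0.32 (0.26 to 0.40) for Col4a6 and 0.50 (0.45 to 0.55) for Col4a5. Podocyte markers, which belong to a cell type that also makes these chains, summed to 606 CPM in WT and 514 CPM in KO endothelium, 3 of 10 being higher and none at 0, and their part in the result was not tested. The same chains were lower in other classes. In stroma 3 of 22 such genes were at least 2-fold lower, against 1.63% of all genes, and none higher: Tinagl1 at 0.34 (0.26 to 0.43), Col4a3 at 0.42 (0.38 to 0.46) and Col4a4 at 0.48 (0.45 to 0.52). In mural cells 2 of 21 were at least 2-fold lower, Col4a4 at 0.36 (0.24 to 0.55) and Col4a3 at 0.41 (0.26 to 0.64), against 2.16% of all genes. There 2 were at least 2-fold higher, against 3.06%, Frem1 at 4.09 (3.19 to 5.32) and Col15a1 at 3.28 (2.29 to 4.83). Col4a4 in ureteric bud and collecting duct had 0.67 (0.56 to 0.80).

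Over the 11 classes in both libraries (22 points that share depth and library), the genes most like each chain on the log2(CPM + 1) scale were found among 12271 genes, as a description. Lama1 was closest to Gm12576 (r = 0.97), Gm37735 and Erbb4. Lama2 was closest to the fibrillar collagen gene Col5a1 (0.95), S1pr3 and Egflam. For Lama4 they were Rassf1 (0.97), Chst2 and Top2b, and for Lama5 Bcam (0.88), which encodes a receptor for the Lama5 chain, Sox6 and Itga3. Lamb1 was closest to Impad1 (0.97), Lamb2 to C430049B03Rik (0.92) and Timp3, Lamb3 to Cndp2 (0.89) and Lamc1 to Map4k3 (0.94). No gene was as near to Lama3, whose highest r was 0.73, with Anapc16.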

How the data were processed

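The deposited matrices hold UMI counts per gene and barcode, 1 per library, and the authors' counts are whole numbers with no normalization. Per the file headers Cell Ranger 7.0.0 (WT) and 7.1.0 (KO) made them. Per the submitters' processing notes bcl2fastq 2.20.0 and STAR 2.7.2a were used with GRCm38 (mm10). For the gene annotation, the strand setting and intronic reads, the choice is not given in the sources used here. Per the labels, libraries were made with a 3′ kit. The WT matrix held 5572 barcodes with 147390790 UMIs and the KO matrix 5991 with 149679281.

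A barcode was kept if it had 1000 UMIs and 500 genes or more and no more than 20% mitochondrial UMIs (4187 WT, 5040 KO). Scrublet's own threshold called 41 WT and 2 KO doublets, under 0.5% in the KO library, so the expected share of highest scores (0.8% per 1000 barcodes) was removed from both, 187 and 242. Counts were scaled to 10000 per cell and log-transformed, and 2000 variable genes gave 40 principal components, 20 neighbours and Leiden clusters at resolution 1 (scanpy 1.11.5, igraph 0.11.9), without batch integration. Laminin genes could enter the clustering. Clusters were named by the mean score of marker lists (at least 0.35, a lead of 0.05 and 3 detected markers) and otherwise stayed unnamed. The laminin genes, lists and settings were chosen with earlier results of these data known.

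UMIs were summed per class and library and divided by nuclear-encoded UMIs. Ratios carry exact conditional intervals, shares exact Clopper-Pearson intervals and levels exact Poisson intervals, all 95%, for counting error only. Ratios needed 20 UMIs over both libraries, and 0.5 UMI was added to sums before a log2 ratio entered a median. A share of 0 was given as 3 counts of the total. Classes with fewer than 20 cells in a library were not compared. All 9 laminin genes, and Lamc3, were compared in every class where they had enough UMIs, but not every value is printed. Some genes are not reported here. From each other list at most 4 genes per class were eligible, with at least 50 UMIs and 20 CPM in 1 library, ranked by the interval bound nearest to 1. Tinagl1 in stroma, Col4a3 in mural cells and genes inside the finer loop clusters were named outside this rule. Positions are from GENCODE M21. Results were recomputed in 12 other settings (cell filters, doublets, cluster resolution, clustering without the laminin and list genes, scaling, means over cells, thinning and gene minimum), with TMM from edgeR 4.0.16 and median of ratios from DESeq2 1.42.0 used for scaling only. A proximal tubule class without a cluster held by 1 library, ratios without the cell of most UMIs and ratios inside finer loop of Henle clusters were added after seeing the data. Calculations were checked on simulated counts. Python 3.11.15, numpy 2.4.6, scipy 1.17.1, pandas 2.3.3 and R 4.3.3 were used.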

Additional observations from a re-analysis of the deposited data

Results flagged for a closer look

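Laminin chains that were at least 2-fold higher in the KO library in 1 class and at least 2-fold lower in another, with intervals that left out 1 in both, are listed here. The differences between classes were not tested, since each class has 1 library per genotype. The Lama3 ratio of KO over WT was 558 in podocytes, while it was 0.425 in ureteric bud and collecting duct, 0.454 in stroma and 0.387 in mural cells. The Lamb3 ratio was 4.68 in nephron progenitors and 0.451 in proximal tubule. The values other than Lama3 in podocytes and Lamb3 in proximal tubule rest on 38 to 108 UMIs over both libraries.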

How the results depend on the processing

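In 12 other settings and 1 added after seeing the data, 981 ratios of single laminin chains and classes were recomputed. Of these 834 stayed inside the counting interval of the reported value and 147 did not. In all 80 values over 38 gene and class pairs lay on the other side of 1 from the reported ratio, 12 of them (8 pairs) where the reported interval had left out 1. Lama3 in podocytes stayed far above 1 in every setting run. It was 16.9 at Leiden resolution 0.5 (31 WT UMIs) and at least 17.6 with cells thinned to 3000 UMIs (0 WT and 32 KO UMIs, against 3 WT UMIs). Those 12 include both values that turned a ratio of at least 2-fold: Lama2 in loop of Henle with thinned cells (0.745, on 1 and 1 UMIs) and Lama4 in proximal tubule with doublets kept (0.840). The other 10 were 2 each for Lama1 in distal tubule (1.17, 1.26) and Lama1 in proximal tubule (1.12, 1.25), 3 for Lama2 in early nephron (1.01 to 1.14), and 1 each for Lama4 (0.939) and Lamc1 (0.930) in progenitors and Lama5 in podocytes (1.04). The number of gene and class pairs at least 2-fold higher, 4 as reported, was 8 as a mean over cells and 2 with at least 50 UMIs per gene. The number at least 2-fold lower, 5 as reported, was 8 as a mean over cells, 3 with thinned cells and 13 with at least 1 UMI per gene. Apart from the minimum of UMIs, which changes the genes counted, the cause was not tested. Median-of-ratios scaling moved log2 ratios by 0.11 in immune cells and by less than 0.1 in size in the other classes. Some settings named no distal tubule or loop of Henle cluster and gave no value there. No paired analysis was possible because there is 1 library per group, and for the same reason no library could be left out. Rare chains (Lama3 outside 3 classes, Lamb3) are limited by the number of UMIs.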
